A study of Mus musculus with 2 samples.

Results

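Malat1 and Neat1 are neighbouring genes on mouse chromosome 19 that each make a long noncoding RNA which stays in the nucleus. They were chosen by name, with the 70 kb of mm10 that reach from 5689 bp below Malat1 to 14520 bp above Neat1, after the ratio of Malat1 between the libraries was known. The members are thus 2 of 47042 RefSeq genes placed on chromosomes 1 to 19, and the locus gives 140 bins of 500 bp. The assay was END-seq, in which an adapter is joined to the ends of broken DNA, so that each read begins where the DNA was broken. Plus-strand reads come from DNA lying on the higher-coordinate side of the break, and minus-strand reads from DNA on the lower-coordinate side.

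The data are 1 library of CD43-negative splenic B cells activated with IL-4 (25 ng/mL) and anti-CD40 (1 µg/mL) and labelled S phase, and 1 library of such cells kept quiescent without these agents and labelled G1 phase. Culture took 24 to 28 h, and the mice were 4 to 8 weeks old. Both titles begin with ATR+c, which the labels do not explain, and no source used here gives strain, sex or number of mice. Activation and cell cycle phase differ together between the libraries and cannot be told apart, and DNA ends give no expression with which to check the cell type.

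The S-phase library held 20543572 reads on chromosomes 1 to 19 and the G1 library 26889564, at 2.90 and 3.99 reads per covered position. Levels are given as RPM, reads per 1000000 reads on those chromosomes, and ratios are S phase over G1 phase. With 1 library per group there is no replicate and no test, and the 95% intervals cover counting error only. They are too narrow for reads, because several reads at 1 position can be copies of 1 molecule, so covered positions are given beside them. Where no read was found, up to 3 reads remain possible, or 0.146 RPM for S phase and 0.112 RPM for G1 phase.

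As background, the Malat1 RNA gathers at nuclear speckles, bodies rich in splicing factors. Its 3′ end is not made by ordinary polyadenylation: RNase P and RNase Z cut the transcript and release a small RNA like a tRNA, called mascRNA. Neat1 gives a short and a long RNA, and the long one is the scaffold of paraspeckles, bodies built with proteins such as NONO and SFPQ. Both genes are among the strongly transcribed loci of many mammalian cells.

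On mm10, counted from 1, Malat1 lies at 5795690 to 5802672 and Neat1 at 5824708 to 5845480. The promoter table places Malat1 on the minus strand, so that it is read toward lower coordinates. Neat1 has no entry there, and its direction, the same as that of Malat1, is background knowledge. The 5′ flank of each gene is therefore the 2 kb at its higher coordinate. The promoter of Malat1 is shown because break ends of the S-phase library fell within it. It is the RefSeq sequence (GRCm38.p6) of chr19:5802623-5802922, minus strand, 250 bases before to 50 after the start, and capitals mark the bases at which the S-phase library had a break end on either strand.
Malat1 promoter: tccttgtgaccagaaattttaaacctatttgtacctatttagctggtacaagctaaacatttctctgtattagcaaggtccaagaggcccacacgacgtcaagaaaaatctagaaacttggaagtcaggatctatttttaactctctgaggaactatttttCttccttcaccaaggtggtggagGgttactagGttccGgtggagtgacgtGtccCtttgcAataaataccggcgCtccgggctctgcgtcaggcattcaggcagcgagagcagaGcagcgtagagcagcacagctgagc
Here the S-phase library had ends at 9 bases and the G1 library at 3 others, with none in common.
Of the S-phase ends, 8 lay between 15 and 89 bases before the start and 1 lay 25 bases after it. The end with most reads, 7 on the minus strand, was the one 89 bases before the start. The G1 ends lay 58, 95 and 127 bases before the start, with 1, 3 and 6 reads. The letters TGACGT, the core of the site bound by CREB and ATF proteins, occur here on either strand in total 2 times, starting 155 and 45 bases before the start, and the S-phase end at 39 bases is the base right after the nearer copy. The same letters, on either strand, are in 7.64% of 25748 promoters of this length on chromosomes 1 to 19. On neither strand does the window hold TATAAA, found in 14.2% of all promoters. It does not hold CCAAT, found in 37.9%. Nor does it hold GGGCGG, found in 36.3%. The E-box letters CACGTG, in 7.23% of promoters, are likewise not there. The motifs searched were chosen after the sequence was seen. The window holds 47% G and C, against a median of 53% over all promoters.

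Break ends over Malat1 were more frequent in the S-phase library. With 2 kb on both sides the gene held 251 S-phase reads and 108 G1 reads, or 12.2 and 4.02 RPM. Per length these are 1.11 and 0.366 RPM per kb, against medians over all genes of 0.385 and 0.363. In G1 phase Malat1 was thus at the level of a middling gene, with 51.0% of genes below it, whereas in S phase 97.7% of genes were below it. The ratio was 3.04 (2.42 to 3.85). The S-phase reads lay at 78 covered positions and the G1 reads at 27, a ratio of 2.75 (1.75 to 4.43). A gene was called higher at a ratio of at least 2 and lower at a ratio of at most 0.5, if it held at least 50 reads in both libraries together. Malat1 was called higher and Neat1 neither way, beside 4.64% of 44881 genes called higher and 2.90% lower. The ratio of Malat1 exceeded that of 99.3% of genes, which describes a gene chosen for this ratio and supports nothing. The same holds for the rank of its S-phase level. By covered positions Malat1 was called higher too, beside 3.62% of genes called higher and 1.49% lower. With 5 kb on both sides the ratio was 1.89 (1.59 to 2.26), below the size for a call.

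Neat1 with its flanks held 271 S-phase reads and 293 G1 reads, or 13.2 and 10.9 RPM. The ratio was 1.21 (1.02 to 1.43), on 85 and 64 covered positions (1.26, 0.902 to 1.77). This is close to the middle of all genes, whose median ratio was 1.08, a log2 shift of 0.11. Divided by that median, Neat1 stood at 1.12 with an interval of 0.946 to 1.33, and Malat1 at 2.81 (2.24 to 3.56). Set against the rest of the 1 Mb around the locus, which was itself higher in S phase at 1.22, the direction of Neat1 turned, at 0.990 (0.836 to 1.17), while Malat1 stood at 2.49 (1.98 to 3.15).

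**Figure D1:**
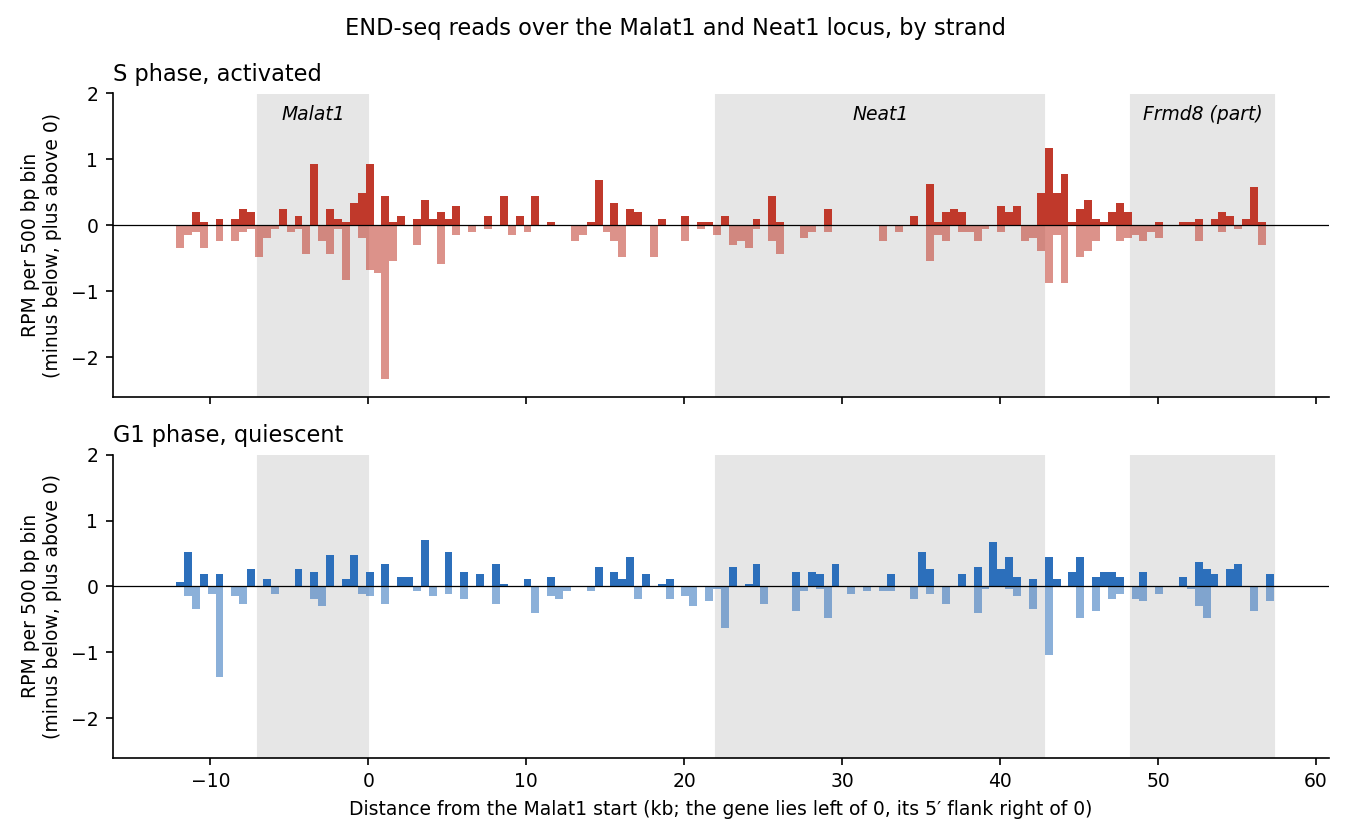
Reads per 500 bp bin in RPM over the locus, S phase above and G1 phase below, with plus-strand reads above 0 and minus-strand reads below 0. Grey spans are genes. The highest S-phase bin, in the 5′ flank of Malat1, holds 57 reads, 48 of them on the minus strand, and the G1 library has 16 reads there.

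The parts of the genes differed. In the 5′ flank of Malat1 the libraries held 113 S-phase reads and 26 G1 reads, or 2.75 RPM per kb (2.27 to 3.31) and 0.483 (0.316 to 0.708), a ratio of 5.69 (3.69 to 9.08). These reads lay at 28 and 7 covered positions, a ratio of 3.80 (1.62 to 10.3). Over the body of Malat1 there were 109 S-phase reads and 64 G1 reads, a ratio of 2.23 (1.62 to 3.08). By covered positions, 40 and 16, it was 2.38 (1.30 to 4.55). The 3′ flank held 29 and 18, a ratio of 2.11 (1.13 to 4.03). By covered positions, 10 and 4, its ratio was 2.38 with an interval of 0.685 to 10.4, which holds 1. The ratio of each of the 3 parts was above 1. That of the 5′ flank stood above the others, although its interval by positions overlaps theirs. The 5′ flank makes up 18.2% of the span and took 45.0% (38.8 to 51.4) of the S-phase reads and 24.1% (16.4 to 33.3) of the G1 reads.

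Neat1 showed a higher S-phase count in its 5′ flank and a level count over its body. The 5′ flank of Neat1 held 90 S-phase reads and 49 G1 reads, or 2.19 RPM per kb (1.76 to 2.69) and 0.911 (0.674 to 1.20), a ratio of 2.40 (1.68 to 3.48). By covered positions, 27 and 12, the ratio was 2.14 (1.05 to 4.63). Of the 90 S-phase reads, 34 lay at 10 positions from 1001 to 1500 bp upstream of the start, where the G1 library had 0. The flank ratio thus rests in large part on that stretch. The body held 175 and 228 reads, or 0.410 and 0.408 RPM per kb, a ratio of 1.005 (0.820 to 1.23). The 3′ flank held 6 and 16 reads, a ratio of 0.491 (0.157 to 1.32), and its strands went opposite ways. Its minus strand had 1 and 16 reads, a ratio with an interval of 0.00195 to 0.527, and its plus strand 5 and 0. By covered positions, 1 and 3 on the minus strand and 3 and 0 on the plus strand, both intervals hold 1. The 5′ flank took 33.2% (27.6 to 39.2) of the S-phase reads of Neat1 and 16.7% (12.6 to 21.5) of its G1 reads, on 8.07% of its span.

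**Figure D2:**
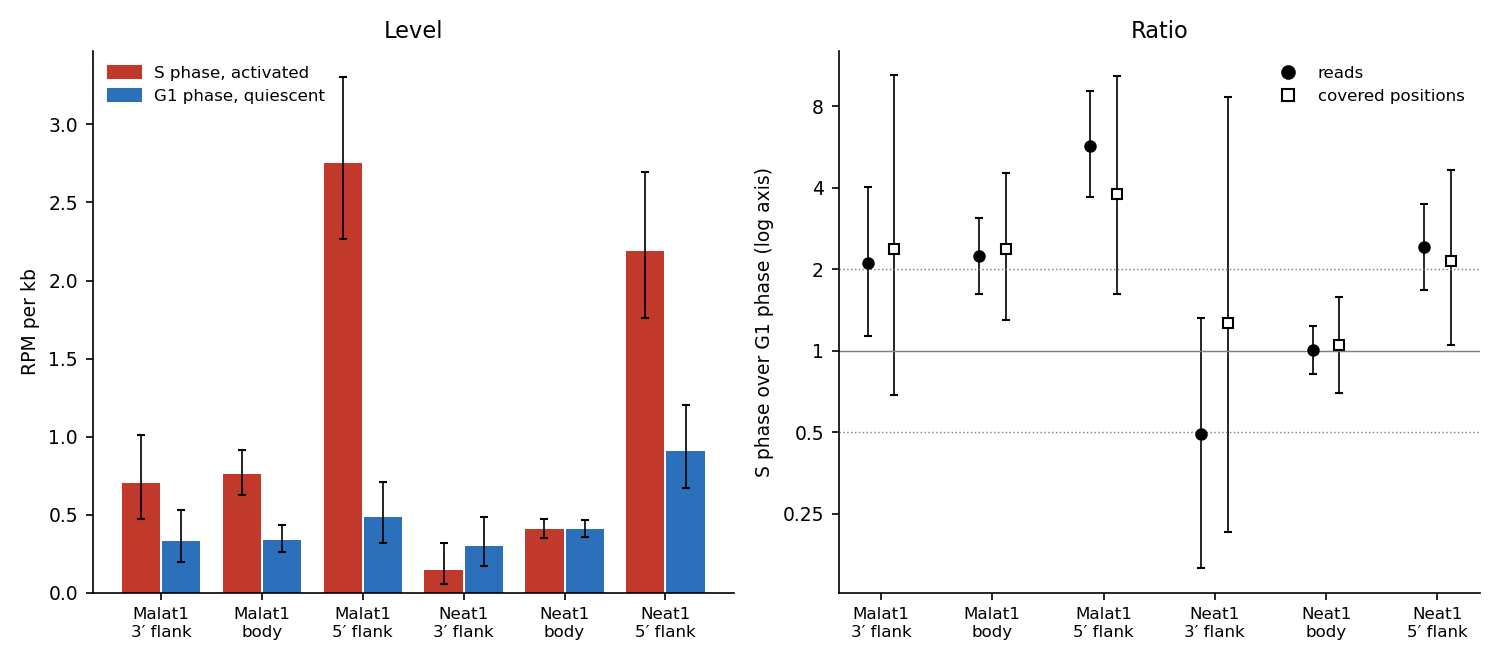
Left, level of each part in RPM per kb, with S phase left of G1 phase and exact Poisson 95% intervals. Right, ratio of S phase over G1 phase for reads (filled) and covered positions (open) with 95% intervals, on a log axis with dotted lines at 0.5 and 2. The ratio of reads is 5.69 in the 5′ flank of Malat1, 2.40 in that of Neat1 and 1.005 over the body of Neat1.

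Higher S-phase counts in 5′ flanks were common in these libraries. Of 22543 flanks in the promoter table with at least 20 reads in both libraries together, 21.7% were called higher and 12.2% lower by the same rule of size, with a median ratio of 1.21. Both Malat1 and Neat1 were called higher by reads, and also by positions, where 18.4% of all flanks were higher and 8.81% lower. The flank of Malat1 exceeded 97.6% of all flanks in ratio of reads and 95.8% in ratio of positions. Its reads are part of the ratio for which Malat1 was chosen, so its ranks here support nothing. The flank of Neat1 exceeded 85.2% and 83.1%. In level, 94.2% of flanks were below Malat1 and 92.3% below Neat1 in S phase, against 56.0% and 85.2% in G1 phase. Divided by the median flank, the ratios were 4.70 and 1.99, and Neat1 was then below the size for a call.

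**Figure D3:**
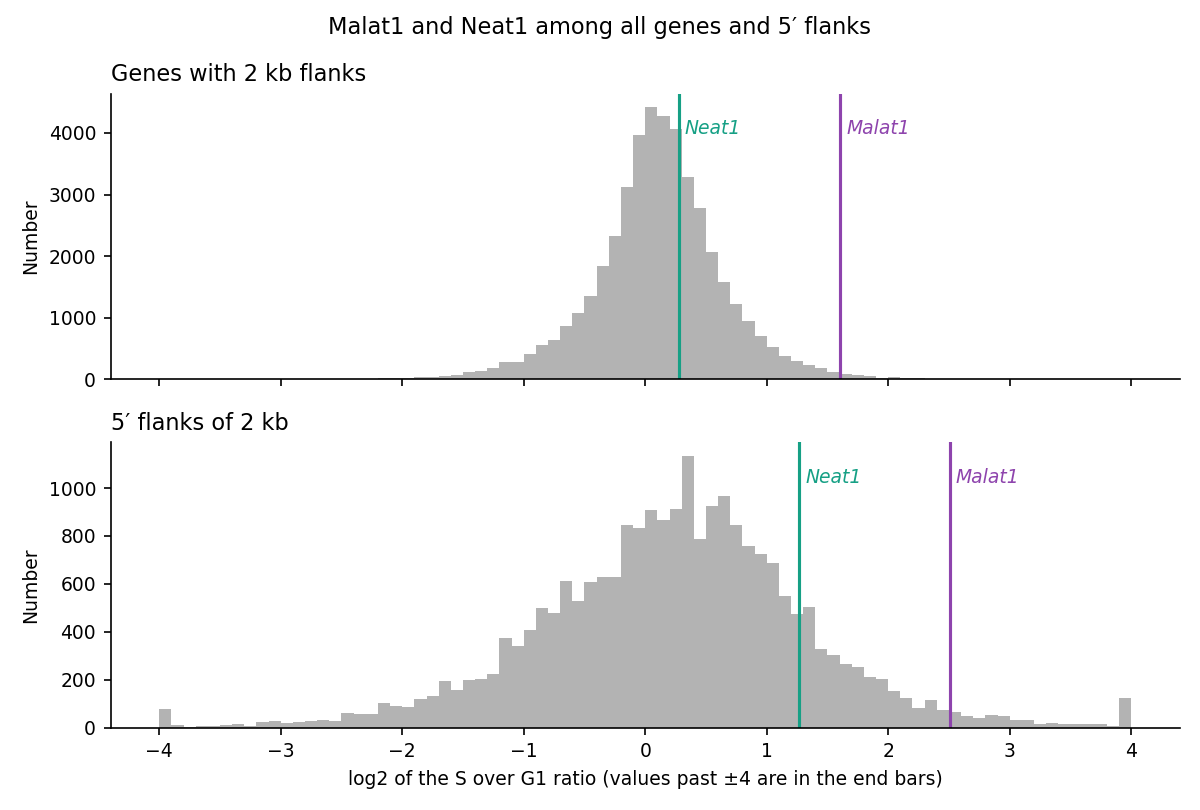
Number of genes with 2 kb flanks (above) and of 2 kb 5′ flanks (below) by log2 ratio of S phase over G1 phase. Lines mark Malat1 and Neat1. Malat1, chosen for its gene ratio, lies near the upper end in both, with 328 genes and 550 flanks above it. Neat1 lies near the middle of the genes, with 15579 above it.

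Within the 5′ flanks the counts were uneven. Nearest to the start of Malat1, in the first 500 bp of the flank, there were 36 S-phase reads and 10 G1 reads, a ratio of 4.71 (2.29 to 10.6). From 501 to 1000 bp there were 62 and 10, a ratio of 8.12 (4.13 to 17.8). Of these 62 reads, 25 lay at 1 position, 903 bp upstream of the start. From 1001 to 1500 bp there were 10 and 6, and from 1501 to 2000 bp there were 5 and 0. The excess in the Malat1 flank thus lay mostly within 1000 bp of the start, in part at the 1 position with 25 reads. The first 500 bp inside the gene held 13 S-phase reads and 2 G1 reads. Counted by covered positions, Malat1 had 10 in S phase and 3 in G1 phase in the first 500 bp of the flank. From 501 to 1000 bp it had 13 and 2, and in the first 500 bp inside the gene 5 and 1. Over all genes in the promoter table, the ratio of covered positions was 1.41 in the first 500 bp of the flank, 1.16 from 501 to 1000 bp, and 1.36 in the first 500 bp inside the gene. The Malat1 ratios above are of reads and are not the same measure.

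In the first 500 bp of the 5′ flank of Neat1 the libraries held 40 S-phase reads and 39 G1 reads, a ratio of 1.34 (0.842 to 2.14). From 501 to 1000 bp there were 15 and 4, a ratio of 4.91 (1.56 to 20.3). For the stretch nearest to the start of Neat1 the interval holds 1 but also reaches past 2. It thus shows neither a difference between the libraries nor that they were alike. From 1001 to 1500 bp there were 34 S-phase reads and 0 G1 reads, and from 1501 to 2000 bp there were 1 and 6. Inside the gene, the first 500 bp had 18 S-phase reads and no G1 read, and the next 500 bp had 4 and 12. The excess of S phase around this start was therefore patchy. Where S-phase reads were fewer, the intervals hold 1: 0.00474 to 1.80 at 1 and 6 reads, and 0.103 to 1.44 at 4 and 12.

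The balance of strands at Malat1 differed between the libraries by reads, whereas by covered positions the intervals overlapped. Over Malat1 with its flanks, minus-strand reads numbered 159 (S phase) and 41 (G1 phase), a ratio of 5.08 (3.58 to 7.34). Malat1 was called higher on that strand, beside 5.92% of 34168 genes called higher and 4.24% lower. On the plus strand there were 92 and 67 reads, a ratio of 1.80 (1.30 to 2.50), below the size for a call, which 6.46% of 34165 genes reached upward and 4.13% downward. The S-phase reads were 36.7% plus-strand (30.7 to 42.9) and the G1 reads 62.0% (52.2 to 71.2), a difference of −25.4 points. By covered positions the shares were 43.6% (32.4 to 55.3) and 51.9% (31.9 to 71.3), a difference of −8.26 points with overlapping intervals. On Neat1 with its flanks the plus-strand share was 48.7% and 50.5%, over its body alone 43.4% and 55.7%, and over chromosomes 1 to 19 it was 49.4% and 49.3%.

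By reads, the minus-strand excess of Malat1 was greatest in the 5′ flank, where a minus-strand read runs toward the gene. There 88 minus-strand S-phase reads stood against 11 in G1 phase, a ratio of 10.5 (5.58 to 21.7). Of 3 equal parts of the gene body, the one nearest the start came close, with 22 and 3, a ratio of 9.60 (2.88 to 50.1). By covered positions these minus-strand ratios were 4.28 (1.41 to 17.4) and 3.33 (0.634 to 32.8), with overlapping intervals. The plus strand of the flank held 25 and 15, a ratio of 2.18 (1.11 to 4.45). Reads that run toward the gene made up 77.9% (69.1 to 85.1) of the S-phase reads of the flank and 42.3% (23.4 to 63.1) of its G1 reads. Among all 5′ flanks with at least 20 reads in the library, the median shares were 45.8% and 46.3%, and 6.29% of flanks in S phase had a share at least as high as that of Malat1. By covered positions the share was 64.3% (18 of 28, 44.1 to 81.4) in S phase and 57.1% (4 of 7) in G1 phase.

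A single position carried part of this excess. The minus-strand base at 5803575, 903 bp upstream of the Malat1 start, held 25 S-phase reads, and the G1 library had none at that base or within 10 bp of it. No other position of Malat1 or its flanks held more than 7 S-phase or 9 G1 reads. Leaving it out, the 5′ flank stood at 4.43 (2.83 to 7.15). In Neat1 and its flanks the S-phase library had most reads at 5846561 (11 reads, plus strand, 1081 bp upstream of the start) and the G1 library at 5831646 (13 reads, minus strand, inside the gene), each with 0 reads in the other library.

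Exact positions were seldom shared. Of 278 covered positions in the locus in S phase and 190 in G1 phase, 5 were the same base and strand, 1.80% and 2.63% of each. Over chromosomes 1 to 19 the shares were 1.83% and 1.93%.

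Each gene body was cut into 3 equal parts. The part of Malat1 nearest its start held 51 S-phase reads and 19 G1 reads, a ratio of 3.51 (2.04 to 6.30). The middle part held 46 and 39, a ratio of 1.54 (0.986 to 2.43). The part at the 3′ end held 12 and 6, a ratio of 2.62 (0.909 to 8.50). The intervals of the 3 parts overlap. The mascRNA segment at 5795924 to 5795981 had no read in either library. For Neat1 the ratios were 1.12 (0.815 to 1.54) in the part nearest its start, 0.725 (0.469 to 1.11) in the middle and 1.11 (0.779 to 1.58) at the 3′ end, all with intervals that hold 1.

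The 500 bp bins show the scale of counts behind these values. The median bin of the locus held 4 reads in each library, and 32 of 140 bins were empty in S phase and 45 in G1 phase. At least 20 reads in both libraries together were found in 22 bins, of which 7 were called higher (31.8%) and 5 lower (22.7%). Over all 391317 such bins of chromosomes 1 to 19, 15.9% were called higher and 36.3% lower. The median ratio of these bins was 0.727, against 1.01 over windows of 70 kb with at least 100 reads. These shares thus describe the bins that met the filter and not the genome as a whole. Malat1 with its flanks held 6 of the 22 bins, with 4 higher and 0 lower. The reads of these 6 bins are part of the ratio for which Malat1 was chosen. Its higher bins, and the share of higher bins in the locus that they raise, thus support nothing. Neat1 with its flanks held 6, with 2 higher and 2 lower. The other 10 gave 1 higher and 3 lower.

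The 4 higher bins of Malat1 ran through the gene and its 5′ flank. The bin at 5803501 to 5804000 had 57 S-phase reads and 16 G1 reads, a ratio of 4.66 (2.64 to 8.70). Of its S-phase reads, 25 lay at the position 903 bp upstream of the start. The bin at 5802501 to 5803000, across the start, had 33 and 10, a ratio of 4.32 (2.08 to 9.83). Inside the gene were those at 5801001 to 5801500 (18 and 3 reads, 7.85, 2.29 to 41.6) and 5799001 to 5799500 (19 and 11 reads, 2.26, 1.02 to 5.26). All of the 19 S-phase reads of the last one were on the plus strand, so the minus-strand excess was not found in every bin of the gene.

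The higher bins of Neat1 were 5846501 to 5847000 in its 5′ flank, with 34 S-phase reads and 0 G1 reads, at least 14.8-fold higher against 3 reads, and 5838001 to 5838500 in the gene, with 24 and 10, a ratio of 3.14 (1.45 to 7.36). Just before its start, the bin at 5845501 to 5846000 had 42 and 40 reads, the most in the locus for both libraries together, and was called neither way. Lower in Neat1 was the bin at 5825001 to 5825500, with 3 and 17 reads (0.231, 0.0434 to 0.799), and so was that at 5841001 to 5841500, with 5 and 19 (0.344, 0.101 to 0.954). Of the fullest bins, 3 more were called neither way: 5847501 to 5848000 (15 and 25 reads, 0.785), 5800001 to 5800500 in Malat1 (14 and 13 reads, 1.41) and 5806001 to 5806500 between the genes (8 and 19 reads, 0.551). Between the genes, the bin at 5817001 to 5817500 was called higher by size, with 14 and 8 reads, but its interval of 0.897 to 6.30 holds 1, and its 4 and 4 covered positions give a ratio of 0.951. Beyond the 3′ flank of Malat1, the bin at 5793001 to 5793500 was lower, with 7 S-phase reads and 42 G1 reads, 37 of these on the minus strand, a ratio of 0.218 (0.0827 to 0.490). It was joined by 5791001 to 5791500 (3 and 18 reads, 0.218, 0.0412 to 0.747) and, in Frmd8, by 5855501 to 5856000 with 0 and 20 reads, at least 5.09-fold lower against 3 reads. Counted by covered positions, the bin at 5846501 to 5847000, with 10 and 0, was the only called bin of the locus whose interval does not hold 1. It met the filter through its S-phase reads alone and was picked out of 22 bins, so this interval supports nothing. The bin with 0 and 20 reads likewise met the filter through 1 library, that of G1 phase.

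Over the whole locus there were 827 S-phase reads and 812 G1 reads, or 40.3 and 30.2 RPM, a ratio of 1.33 (1.21 to 1.47). Windows of 70 kb with at least 100 reads numbered 34296, and 0.00292% of them were called higher and 0% lower. The locus was called neither way, and its ratio exceeded that of 95.6% of windows. It holds Malat1, which was chosen for its ratio, so this rank supports nothing. On the minus strand there were 451 and 379 reads, a ratio of 1.56 (1.36 to 1.79), and on the plus strand 376 and 433, a ratio of 1.14 (0.987 to 1.31). The span between the flanks of the 2 genes had 154 and 164 reads, a ratio of 1.23 (0.980 to 1.54). The part of Frmd8 inside the locus had 57 and 105 reads, a ratio of 0.711 (0.505 to 0.990), but 26 and 23 covered positions, a ratio of 1.07 (0.589 to 1.97).

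Of the 30 genes that reach into the 200 kb on either side or into the locus, 29 had at least 50 reads. Of these 1 was called higher and 0 lower, 25 stood above 1, and the median ratio was 1.28. Over all genes 4.64% were called higher, 2.90% lower, and 61.1% stood above 1, so 1 call in 29 is near the share over all genes. On the side of Neat1, Frmd8 had 256 S-phase reads and 264 G1 reads, a ratio of 1.27 (1.06 to 1.51). Pola2, a subunit of the polymerase that primes replication, had 277 and 313, a ratio of 1.16 (0.982 to 1.37). The higher gene was Znrd2 with 82 and 38 reads, a ratio of 2.82 with an interval of 1.90 to 4.27, and next came Tigd3 at 1.995 (1.498 to 2.67), just below the size for a call. By reads, the interval of Malat1 lay above that of Frmd8 and overlapped those of Znrd2 and Tigd3. By covered positions Cdc42ep2 was highest of the 29 at 1.93, with Znrd2 at 1.77, Frmd8 at 1.61 and Tigd3 at 1.54. All were below the 2.75 of Malat1, but Cdc42ep2 and Znrd2 lay inside its interval of 1.75 to 4.43. Malat1 was chosen for its ratio and its neighbours were not, so its place above them supports nothing. Lowest was Slc25a45, at 0.785 (0.574 to 1.07).

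**Figure D4:**
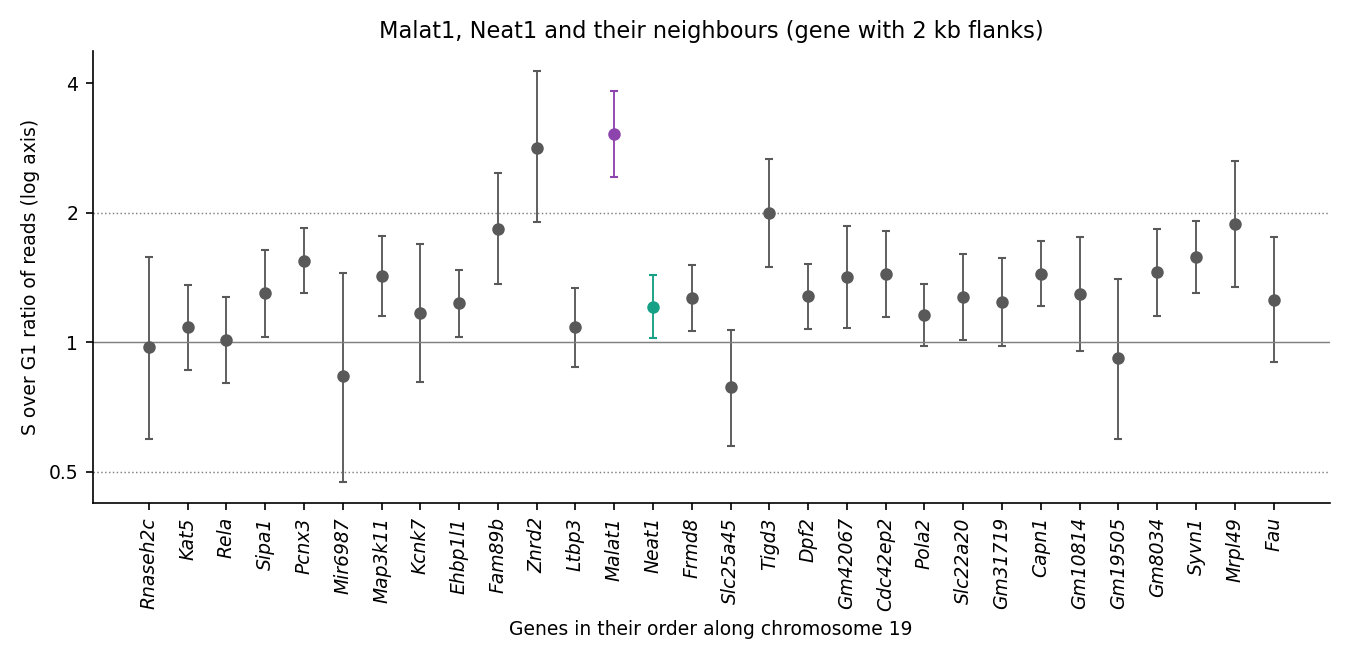
Ratio of reads, S phase over G1 phase, on a log axis for Malat1, Neat1 and most of the neighbouring genes counted, each with 2 kb flanks, in their order along the chromosome. Bars are 95% intervals for counting error, and the dotted lines mark 0.5 and 2. Malat1, chosen for its ratio, at 3.04 and Znrd2 at 2.82 stand above 2.

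The genes whose proteins or RNAs work with Malat1 and Neat1 were counted by the same rule, as DNA and not as expression. Of 17 paraspeckle protein genes, 0 were called higher and 0 lower, 16 stood above 1, and the median ratio was 1.25. Over all genes 4.64% were called higher, 2.90% lower and 61.1% stood above 1, with a median of 1.08. Their lowest was Pspc1 with 575 S-phase reads and 779 G1 reads (0.966, 0.866 to 1.08). Sfpq had 881 and 1074 (1.07, 0.981 to 1.17). Nono, Rbmx and Rbm3 are not on chromosomes 1 to 19 and were not counted.

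Of 22 genes of nuclear speckles and splicing, 1 was called higher and 0 lower, near the 4.64% and 2.90% of all genes, with a median of 1.32. The higher gene was Srsf2, a splicing factor used as a speckle marker, with 152 and 89 reads (2.24, 1.71 to 2.94). Srrm2, a core protein of speckles, was lowest at 0.863 (0.742 to 1.002). Of 17 genes that act in processing or decay of nuclear RNA, 0 were called higher and 0 lower, beside the same shares of all genes, with a median of 1.13. They ranged from Mettl3, the m6A writer, at 0.816 (0.658 to 1.01) to Rpp38, a protein of RNase P, at 1.68 (1.34 to 2.10). Elac2, which encodes RNase Z, stood at 1.48 (1.29 to 1.70).

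Of 22 other noncoding RNA genes, 2 were called higher and 1 lower, beside 4.64% and 2.90% of all genes, with a median of 1.15. The higher ones were Snhg5, a host of small nucleolar RNAs, with 216 and 100 reads (2.83, 2.22 to 3.62), and Rn7sk, the RNA that holds the elongation factor P-TEFb, with 199 and 127 (2.05, 1.63 to 2.58). The lower one was Epb41l4aos, with 43 and 120 (0.469, 0.323 to 0.670). Tug1, another nuclear long noncoding RNA gene, stood at 1.93 (1.65 to 2.25), and Meg3 at 1.05 (0.880 to 1.26). Malat1, at 3.04, was above the highest of the 22, but its interval overlapped those of Snhg5 and Rn7sk. As Malat1 was chosen for its ratio, this place supports nothing.

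The genes most like the members were taken by the distance between log2 levels per length on 4 tracks, the 2 strands of the 2 libraries, among 44877 genes. Nearest to Malat1 were Ppp1r1b (295 and 133 reads, ratio 2.90, distance 0.582), Naxe (2.50), Rps29 (2.37), 1700064M15Rik (2.70) and Gm32934 (1.97). Nearest to Neat1 were Tmem11 (206 and 217 reads, ratio 1.24, distance 0.0595), Gid8, Gm21304, Avl9 and Safb2, with ratios from 1.17 to 1.24. The nearest gene to Malat1 was thus farther off than all 5 of Neat1, the farthest of which lay at 0.0926.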

How the data were processed

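For each library the authors deposited a pair of bedGraph tracks, 1 for either strand. Per the file headers the tracks are named for phase and strand, and the counts in them are whole numbers of reads starting at a base, which nothing had scaled. The submitters' processing notes name mm10, SAMtools 1.11, Bowtie 1.1.2 and bedtools. No source used here gives settings, or says how duplicates and reads that match several places were handled. Reads without molecular identifiers cannot be told from copies.

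Counts were summed per strand with Python 3.11.15, numpy 2.4.6, pandas 2.3.3 and scipy 1.17.1, scaled to the total on chromosomes 1 to 19, and plotted with matplotlib 3.10.9. Genes and the Malat1 promoter came from RefSeq GRCm38.p6, the assembly of mm10. Ratio intervals are conditional exact intervals of a pair of Poisson counts, and shares carry Clopper-Pearson intervals, both at 95%. The gene calls, with thresholds in the text, were tried on simulated Poisson counts, which lack the stacked reads of the real data. Calls of bins, 5′ flanks, windows and single strands were not tried in this way. Likeness used log2 of RPM per kb plus 0.01.

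The members and lists were chosen with earlier results of these data known. The text names the members, neighbours within 200 kb, the 10 fullest and all called bins, the highest positions, the called, highest and lowest list members and the 5 nearest genes, except some that are not reported here. Other genes, the 5′ flanks, steps, body parts and motifs were chosen after values were seen. Alternatives changed scaling, bins, filters, fold, strand, span and stacked reads.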

Additional observations from a re-analysis of the deposited data

How the results depend on the processing

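Each figure here comes from 1 library per group, and no paired analysis was possible because there is only that 1 library in each group. Malat1 stayed above 1 under all 10 alternatives, from 1.80 on the plus strand alone to 5.08 on the minus strand alone. It was 2.23 without flanks and 1.89 with 5 kb flanks, so that the plus strand alone and the wider span were below the size for a call. Neat1 stayed within its interval except without flanks (1.005) and with the rest of the 1 Mb set to 1 (0.990). The whole locus moved to 1.09 with the rest of the 1 Mb set to 1, 1.14 on the plus strand alone and 1.56 on the minus strand alone.

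The bin counts depended on bin size and filter. With 1000 bp bins 13 were higher and 11 lower of 38, beside 17.7% and 27.8% of all bins. With 250 bp bins these were 5 and 2 of 11 (14.9% and 41.0% of all), with at least 10 reads 26 and 17 of 66 (23.6% and 35.3%), and with at least 40 reads 2 and 1 of 5 (17.7% and 17.9%). At a fold of 1.5, 8 were higher and 8 lower of 22 (23.9% and 46.8%). With each position counted once 4 were higher and 5 lower of 22 (13.1% and 32.4%). The difference in plus-strand share of Malat1 moved to −8.26 points with each position counted once, and that of Neat1, −1.80 points with flanks, to −12.3 points without them. The cause of these changes was not tested. In the 5′ flanks, alternatives added after the data were seen gave 2.18 to 10.5 for Malat1 and 1.82 to 3.18 for Neat1. At a median of 4 reads per bin, a 2-fold difference in 1 bin is within counting error.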
